A study of Rattus norvegicus with 26 samples.

Results

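The 10 genes described here are Trem2, Tyrobp, Cd68, Msr1, Gpnmb, Lgals3, Spp1, Apoe, Lpl and Fabp5, which encode receptors, endosomal and lysosomal proteins, secreted proteins and lipid carriers of phagocytic macrophages and microglia. They were taken by gene symbol from the 32883 genes of a rat spinal cord count table, with no use of their levels. Each of the 10 was among the 17990 genes that passed the filter on low counts and were tested. Msr1 had the lowest counts of the 10 in Intact, between 5 and 64 in the 4 libraries.

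Microglia are the resident macrophages of the spinal cord, and after an injury they act together with macrophages that enter from the blood to take up myelin and cell debris. TREM2 is a surface receptor that binds lipids and lipoproteins and signals through the adaptor protein TYROBP. In mouse models of neurodegeneration, TREM2 signalling accompanies a state of microglia rich in lysosomes and lipid handling proteins, for which Apoe, Lpl, Gpnmb and Spp1 are common markers.

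RNA sequencing of poly(A) transcripts covered 26 libraries in 8 groups of adult female wild type Sprague-Dawley rats (250 g, post natal day 70). The labels give this age for every group, though cords were taken at different times, so the age at collection is not known. Intact cords (n = 4) were uninjured, from rats that the study describes as intact/sham. Every other group had a clip compression at T10 with a closing force of 60 g held for 1 min. The sub-SCI cords (n = 3) were taken at 7 days after injury, the time of transplantation. The +MSC rats then received hUC-MSCs, mesenchymal stem cells from the human umbilical cord, by intrathecal injection and the +PBS rats received none (the study's vehicle was PBS). Cords were taken at 1 week post-transplantation (wpt) (+PBS-1w, n = 3 and +MSC-1w, n = 3), at 2 wpt (+PBS-2w, n = 2 and +MSC-2w, n = 3) and at 4 wpt (+PBS-4w, n = 4 and +MSC-4w, n = 4). The study gave its rats cyclosporin A against rejection of the human cells, and whether Intact rats had it was not stated. Each library is a 5 mm segment centred on the lesion, so a lower level can come from fewer cells of a type or from less RNA per cell, which cannot be told apart here. The study describes its replicates as biological, while the labels do not say which animal each library came from.

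Total counts per library lay between 19496602 and 43468509. Markers of neurons, astrocytes and oligodendrocytes, the defining cells of the cord, were detected in each group. The libraries labelled as replicate 1 deviated from their group means more alike than those of other numbers: the median correlation over genes was 0.20 between replicate 1 libraries of compared groups (14 pairs), against -0.001 for replicate 2 (14 pairs), 0.081 for replicate 3 (11 pairs) and 0.017 for replicate 4 (3 pairs). The results that moved when the 8 libraries labelled replicate 1 were left out are given with and without them.

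The promoter sequences shown are those of the 2 genes with the steepest rise after injury, Gpnmb and Cd68. Gpnmb encodes a membrane glycoprotein of lysosomes and phagosomes, and Cd68 encodes macrosialin, a glycoprotein of late endosomes and lysosomes. The letters are the 250 bases before the annotated start, 5′ to 3′ on the gene's strand, from RefSeq (build GRCr8), at chr4:79340878-79341127 on the plus strand for Gpnmb and at chr10:54882442-54882691 on the minus strand for Cd68. Capitals mark the AP-1 motif TGANTCA and the MITF and TFE motif TCACNTGA. AP-1 is a factor of activated myeloid cells, and the MITF and TFE factors drive lysosomal genes.
Gpnmb: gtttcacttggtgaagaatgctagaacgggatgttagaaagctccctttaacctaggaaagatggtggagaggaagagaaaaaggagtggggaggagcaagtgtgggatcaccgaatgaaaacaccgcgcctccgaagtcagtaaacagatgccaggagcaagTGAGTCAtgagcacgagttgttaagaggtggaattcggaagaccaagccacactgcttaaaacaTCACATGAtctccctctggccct
Cd68: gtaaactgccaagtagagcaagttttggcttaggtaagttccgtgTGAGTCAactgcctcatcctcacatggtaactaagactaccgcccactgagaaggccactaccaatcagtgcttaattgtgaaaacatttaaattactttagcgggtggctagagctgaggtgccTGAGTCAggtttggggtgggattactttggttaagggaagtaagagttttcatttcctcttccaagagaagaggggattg
Both genes hold the same AP-1 heptamer TGAGTCA, Gpnmb once at 87 bases before its start and Cd68 at 205 and at 80 bases before its start. Gpnmb also holds TCACATGA at 23 bases before its start. The RefSeq table held 7 start sites for 5 of the 10 genes (Trem2, Gpnmb, Spp1, Cd68 and 3 for Apoe), and on both strands none of the windows of Trem2, Spp1 and Apoe held either motif. The exact PU.1 octamer GAGGAAGT and the E-box CACGTG were in none of the 7 windows. Shorter forms of the PU.1 motif were not searched for. The stretch GAGGAA is in the Gpnmb window as printed and in the Cd68 window on the other strand. Among 33469 RefSeq windows of the same length, 6.34% held the AP-1 motif, 3.34% the MITF and TFE motif, 2.04% the PU.1 octamer and 5.59% the E-box. The MITF and TFE motif was chosen after the sequences had been read, the motifs do not overlap in these windows, and a match of letters is a description of the sequence. Tyrobp, Lgals3, Lpl, Fabp5 and Msr1 had no entry.

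The comparison of injured with Intact cords asks how far these genes rose with the lesion. A gene was called where its log2 fold change was over 1 in size and edgeR's quasi-likelihood test gave a p under 0.01 after Benjamini-Hochberg adjustment over the 17990 genes, the thresholds of the study. Levels are CPM, counts scaled by TMM and by the size of the library. All 10 genes were called higher in sub-SCI than in Intact, where 16.6% of the genes tested were called higher. Together they took 0.295% of all counts in Intact (mean of 4 libraries, 0.266% to 0.313%) and 3.93% in sub-SCI (mean of 3, 3.77% to 4.01%), most of it Apoe, which alone took 2.64% ± 0.325 (SD, n = 3) in sub-SCI. The median log2 fold change of the 10 was 4.54, beside -0.018 over all genes tested.

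Trem2, the lipid receptor, was at 7.42, 12, 13.7 and 19.0 CPM in Intact and at 288, 359 and 324 CPM in sub-SCI. Tyrobp, its signalling adaptor, was at 13.92, 17.45, 13.04 and 23.22 CPM in Intact and at 381, 401 and 328 CPM in sub-SCI. The log2 ratio of Trem2 to Tyrobp in CPM was -0.42 ± 0.41 (SD, n = 4) in Intact and -0.19 ± 0.19 (SD, n = 3) in sub-SCI. The rises were 4.63 ± 0.31 (SE) for Trem2 (edgeR adjusted p = 1.46e-10) and 4.45 ± 0.28 for Tyrobp (edgeR adjusted p = 5.23e-11) on the log2 scale. All 3 sub-SCI libraries lay far above the 4 Intact libraries for both.

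Cd68 was at 2.40, 3.30, 3.56 and 5.82 CPM in Intact and at 548, 702 and 689 CPM in sub-SCI. Msr1, the class A macrophage scavenger receptor for modified lipoproteins, was at 0.273, 1.10, 2.96 and 1.52 CPM in Intact and at 53.4, 79.4 and 100.3 CPM in sub-SCI. Neither group of libraries overlapped the other for either gene. Cd68 rose by 7.41 ± 0.40 on the log2 scale (edgeR adjusted p = 8.42e-12) and Msr1 by 5.70 ± 0.49 (edgeR adjusted p = 3.99e-09).

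Gpnmb showed the steepest rise of the 10. It was at 20.1, 20.8, 24.2 and 36.1 CPM in Intact and at 5467, 6165 and 6614 CPM in sub-SCI, a log2 fold change of 7.91 ± 0.41 (edgeR adjusted p = 6.11e-12). Per kilobase of gene length, it moved from rank 7090 of the 17990 genes in Intact to rank 16 in sub-SCI. Lgals3, which encodes galectin-3, a sugar-binding lectin recruited to damaged lysosomes, was at 19.8, 37.6, 28.0 and 39.3 CPM in Intact and at 1049, 1164 and 1417 CPM in sub-SCI. Its log2 fold change was 5.28 ± 0.34 (edgeR adjusted p = 6.14e-11), and it ranked 41 per kilobase in sub-SCI.

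Spp1, which encodes the secreted matrix protein osteopontin, was at 221, 222, 199 and 231 CPM in Intact, a level that put it at rank 454 per kilobase before any injury. It was at 2423, 4100 and 5102 CPM in sub-SCI, a wide spread within 1 group, and its log2 fold change was 4.15 ± 0.51 (edgeR adjusted p = 5.45e-07). Apoe, which encodes the main apolipoprotein of the central nervous system and is also expressed by astrocytes, was at 2805, 2776, 2433 and 2751 CPM in Intact and at 30360, 26767 and 23697 CPM in sub-SCI. Apoe was already at rank 18 per kilobase in Intact and was at rank 1 in sub-SCI, with a log2 fold change of 3.32 ± 0.23 (edgeR adjusted p = 2.25e-10).

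The lipid enzyme and carrier rose least. Lpl, which encodes lipoprotein lipase, was at 6.28, 11.0, 11.5 and 14.4 CPM in Intact and at 51.1, 53.1 and 57.4 CPM in sub-SCI (log2 fold change 2.31 ± 0.42, edgeR adjusted p = 6.27e-05). Fabp5, a cytosolic fatty acid binding protein, was at 97.5, 77.8, 66.5 and 69.2 CPM in Intact and at 483, 438 and 488 CPM in sub-SCI (2.59 ± 0.31, edgeR adjusted p = 3.62e-07). Both sets of sub-SCI libraries still lay wholly above Intact.

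**Figure D1:**
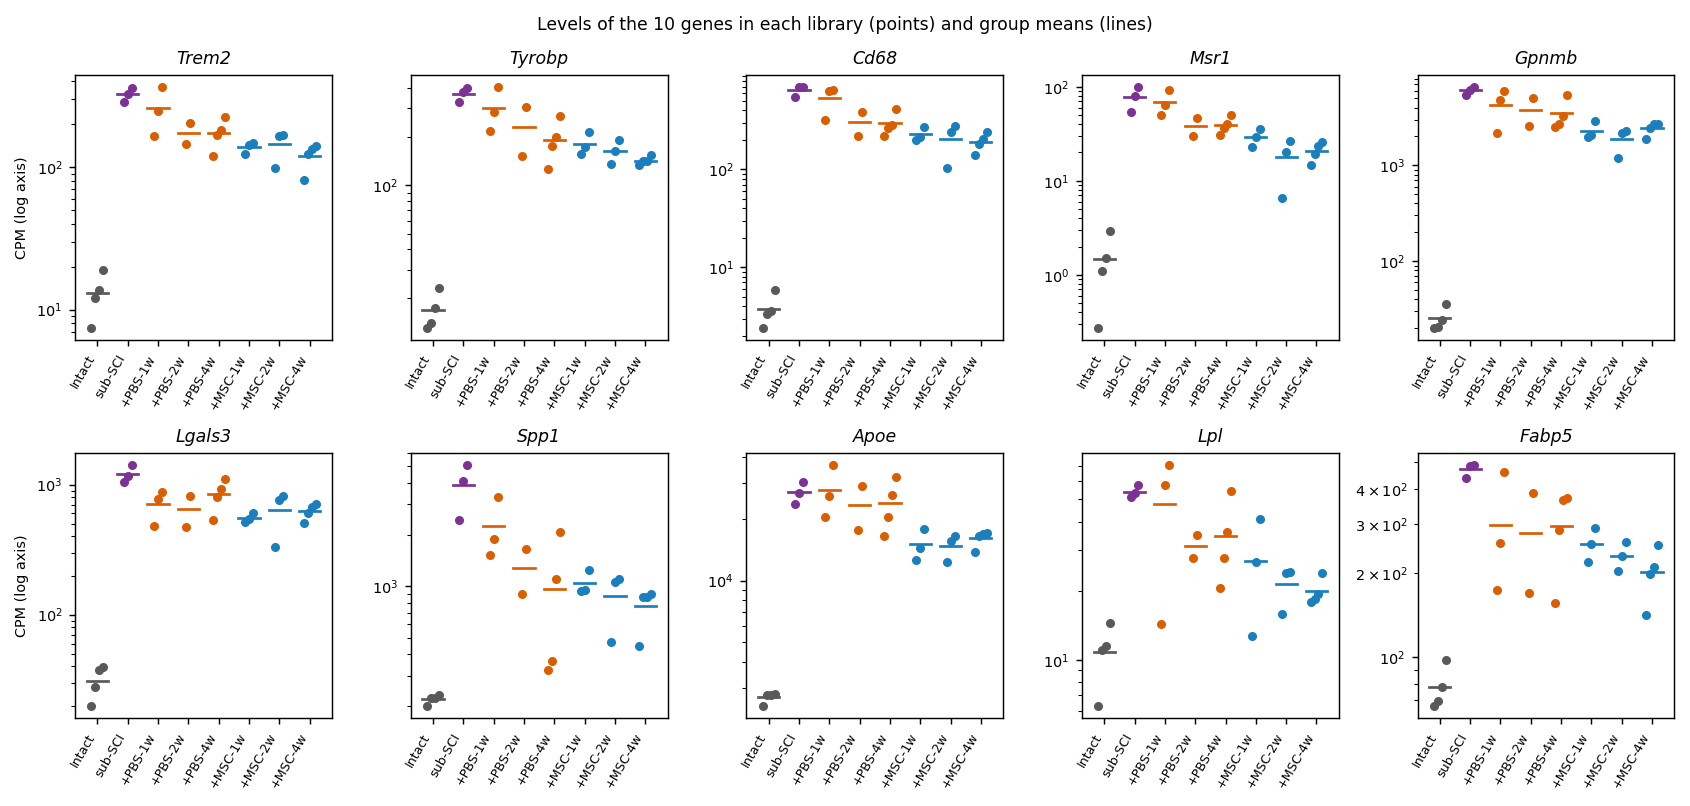
Level of each gene in every library, in CPM on a log axis, by group (grey Intact, purple sub-SCI, orange +PBS, blue +MSC), with points for libraries and lines for group means. The Intact libraries sit at the bottom of each panel, and only for Lpl does an injured library (12.6 CPM in +MSC-1w, 14.3 CPM in +PBS-1w) fall within the range of Intact, whose highest value was 14.4 CPM.

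The 10 genes were also compared with Intact in the 6 later groups. These comparisons share the 4 Intact libraries. In the +PBS groups, 10, 9 and 10 of the genes were called higher at 1, 2 and 4 wpt, where 13.5%, 8.84% and 13.3% of all genes were. In the +MSC groups, 9 were called higher at each week, where 7.87%, 5.6% and 7.25% of all genes were. The gene not called was Lpl in each case. Its log2 fold change was 1.53 ± 0.45 in +PBS-2w (edgeR adjusted p = 0.0117), 1.31 ± 0.41 in +MSC-1w (edgeR adjusted p = 0.0195), 0.97 ± 0.42 in +MSC-2w (edgeR adjusted p = 0.108) and 0.87 ± 0.39 in +MSC-4w (edgeR adjusted p = 0.0933). For 9 of the 10 genes, every one of the 22 injured libraries lay above every Intact library, which held for 10.3% of all genes tested. The exception was again Lpl.

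**Figure D2:**
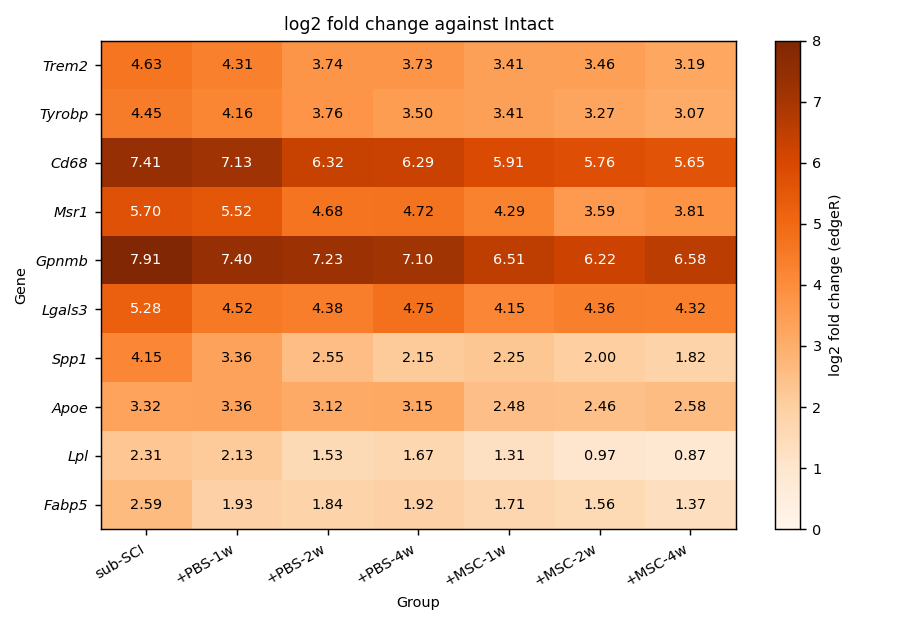
Log2 fold change of each gene (rows) against Intact in the 7 injured groups (columns), from edgeR, with darker orange for larger values. Gpnmb and Cd68 are darkest in every column (5.65 to 7.91) and Lpl is palest in 6 of the 7 columns, with Fabp5 palest in +PBS-1w.

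The change within the injured cords was read against sub-SCI, whose 3 libraries these comparisons share. In +PBS-1w none of the 10 was called lower by edgeR (1 had an unadjusted p under 0.05, and DESeq2 on all libraries called none), beside 0.106% of all genes. In +PBS-2w edgeR called none (5 at an unadjusted p under 0.05), beside 2.1% of all genes, and DESeq2 fitted on these groups alone called 2, as did edgeR without the 8 libraries labelled replicate 1. These shares are of genes called lower. At an unadjusted p under 0.05, 3353 of the 17990 genes passed in either direction in +PBS-1w and 5876 in +PBS-2w. The share of all genes was taken for the edgeR fit of all libraries only. In +PBS-4w 1 gene was called lower, beside 3.09% of all genes. That gene was Spp1, at 2083, 366, 1095 and 324 CPM, with a log2 fold change of -2.003 ± 0.479 against sub-SCI (edgeR adjusted p = 0.00414). The 4 libraries ranged over more than the +MSC-4w libraries did, and all lay below the lowest sub-SCI library. The call did not hold in each fit: between 0 and 2 genes were called when single libraries were left out, none without sub-SCI replicate 2, sub-SCI replicate 3, +PBS-4w replicate 2 or +PBS-4w replicate 4, and 5 genes were called without the libraries labelled replicate 1.

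At an adjusted p under 0.05 with no limit on the fold, 4 of the 10 were lower in +PBS-4w than in sub-SCI (11.6% of all genes): Trem2, Tyrobp, Spp1 and Cd68. Apoe moved least, at 32014, 16556, 26304 and 20547 CPM in +PBS-4w, a log2 fold change of -0.18 (95% interval -0.64 to 0.29, edgeR adjusted p = 0.604). Lgals3 was at 919, 538, 809 and 1095 CPM, a log2 fold change of -0.53 (-1.14 to 0.08, edgeR adjusted p = 0.201). Spp1 and Apoe both encode secreted proteins, and the log2 ratio of Spp1 to Apoe in CPM was -2.86 ± 0.73 (SD, n = 3) in sub-SCI and -5.00 ± 0.92 (SD, n = 4) in +PBS-4w, with no overlap of the libraries (-3.65 to -2.22 against -5.99 to -3.94). Whether the genes differ in their change was not tested. In +MSC-4w, 8 of the 10 were called lower than in sub-SCI (6.1% of all genes), and at an adjusted p under 0.05 all 10 were (20.6% of all genes). The 2 genes not called were Apoe (-0.75 ± 0.22, edgeR adjusted p = 0.0098) and Lgals3 (-0.96 ± 0.29, edgeR adjusted p = 0.0118). Without sub-SCI replicate 3, or without +MSC-4w replicate 1, the count called was 5.

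Whether transplantation changed these genes was asked at each week, +MSC against +PBS. All 10 genes had a negative log2 fold change at 1, 2 and 4 wpt, with medians of -0.89, -0.55 and -0.55 beside -0.002, 0.002 and -0.039 over all genes. This direction rested in part on the libraries labelled replicate 1: without those 8 libraries, 6 of the 10 were positive at 2 wpt (Trem2 0.19, Tyrobp 0.21, Spp1 0.26, Lgals3 0.74, Cd68 0.23 and Fabp5 0.51) and Spp1 was positive at 4 wpt (0.57). At 2 wpt that fit keeps replicate 2 as the only +PBS library, the lowest of its group for 10 of 10 genes. It also drops +MSC-2w replicate 1, the lowest of its group for 10 of 10. Without +PBS-2w replicate 1 alone, Tyrobp (0.11), Lgals3 (0.46) and Fabp5 (0.45) were positive at 2 wpt. Leaving out 1 other library also turned Lgals3 at 2 wpt (0.30, +MSC-2w replicate 1), Fabp5 at 1 wpt (0.24, +PBS-1w replicate 3) and Spp1 at 4 wpt (0.35, +PBS-4w replicate 1). With all libraries, none of the 10 was called lower by edgeR at any of the 3 weeks, nor had an adjusted p under 0.05. The share of all genes called lower was 0.0111% at 1 wpt, 0% at 2 wpt and 0% at 4 wpt, and the share lower at an adjusted p under 0.05 was 0.0611%, 0% and 0.928%. At an unadjusted p under 0.05, 7, 3 and 4 of the 10 were lower. At that threshold 3219, 2219 and 4048 of the 17990 genes tested passed in either direction. DESeq2 on all libraries called none at any week, and DESeq2 on the 2 groups of 1 wpt alone called 3 (Spp1, Cd68 and Msr1). The share of all genes called by DESeq2 was not taken.

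Cd68 at 1 wpt was at 629, 318 and 655 CPM in +PBS and at 270, 199 and 217 CPM in +MSC. Every +MSC library lay below every +PBS library, and the log2 fold change was -1.22 ± 0.35 (95% interval -1.94 to -0.51, edgeR adjusted p = 0.101). Apoe at 1 wpt was at 25966, 20399 and 36702 CPM in +PBS and at 17916, 12638 and 14488 CPM in +MSC, also without overlap (-0.88 ± 0.24, edgeR adjusted p = 0.0912). Msr1 at 1 wpt was at 92.6, 49.7 and 63.2 CPM in +PBS and at 29.5, 35.4 and 22.7 CPM in +MSC (-1.23 ± 0.44, edgeR adjusted p = 0.165). In all, the libraries did not overlap, with +MSC lower, for 6 genes at 1 wpt (Trem2, Tyrobp, Apoe, Spp1, Cd68 and Msr1), beside 11.6% of all genes. The same held for 4 genes at 2 wpt (Apoe, Gpnmb, Lpl and Msr1), beside 18.4%, and for 1 gene at 4 wpt (Msr1), beside 4.47%.

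Among the genes described here, Msr1, the scavenger receptor, was the 1 gene without overlap at each of the 3 weeks. The share of all genes tested without overlap at each of the 3 weeks was not taken, so whether this sets Msr1 apart is not known. At 2 wpt it was at 46.7 and 29.9 CPM in +PBS and at 6.60, 26.8 and 20.4 CPM in +MSC. At 4 wpt it was at 30.5, 36.2, 49.9 and 40.1 CPM in +PBS and at 14.8, 25.6, 19.5 and 23.7 CPM in +MSC.

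Averaged over the 3 weeks with equal weight, 1 of the 10 genes was called lower in +MSC than in +PBS, where 0.956% of all genes were called lower. This was Msr1 (-1.08 ± 0.25, 95% interval -1.604 to -0.551, edgeR adjusted p = 0.00544). The call depended on single libraries and on the filter: it was lost when any of 7 of the 26 libraries was left out (+PBS-1w replicate 1, +PBS-2w replicate 1, +PBS-4w replicate 3, +MSC-1w replicates 1 and 3, +MSC-2w replicate 1 or +MSC-4w replicate 1) and without the libraries labelled replicate 1 (-0.73, edgeR adjusted p = 0.0193), and Msr1 was not tested where at least 10 counts were required in every library. At an adjusted p under 0.05, 7 of the 10 were lower, beside 10.9% of all genes. Beside Msr1 these were Apoe (-0.70 ± 0.14, edgeR adjusted p = 0.00168), Cd68 (-0.80 ± 0.20, edgeR adjusted p = 0.00682) and Gpnmb (-0.81 ± 0.20, edgeR adjusted p = 0.00727), with Tyrobp (-0.56), Trem2 (-0.57) and Lpl (-0.73). This count was 2 (Apoe and Msr1) without +PBS-2w replicate 1, 1 of only 2 libraries of its group, and also 2 (the same genes) without the libraries labelled replicate 1.

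The 3 genes that did not pass were Spp1 (-0.66, 95% interval -1.27 to -0.05, edgeR adjusted p = 0.109), Fabp5 (-0.35, -0.74 to 0.04, edgeR adjusted p = 0.189) and Lgals3 (-0.27, -0.65 to 0.10, edgeR adjusted p = 0.297). Lgals3 at 2 wpt was at 824 and 471 CPM in +PBS and at 329, 824 and 767 CPM in +MSC, so that the groups overlapped. For Spp1 the 4 wpt libraries overlapped as well, with +MSC at 448, 866, 863 and 903 CPM between the extremes of +PBS. The effect at 4 wpt less that at 1 wpt was called for none of the 10 genes and for 0% of all genes by edgeR, and for none of the 10 by DESeq2 on all libraries. None of the 10 had an unadjusted p under 0.05 for it (702 of all genes did), and the intervals were wide, from -0.35 to 1.53 for Cd68 and from -0.34 to 0.97 for Apoe.

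**Figure D3:**
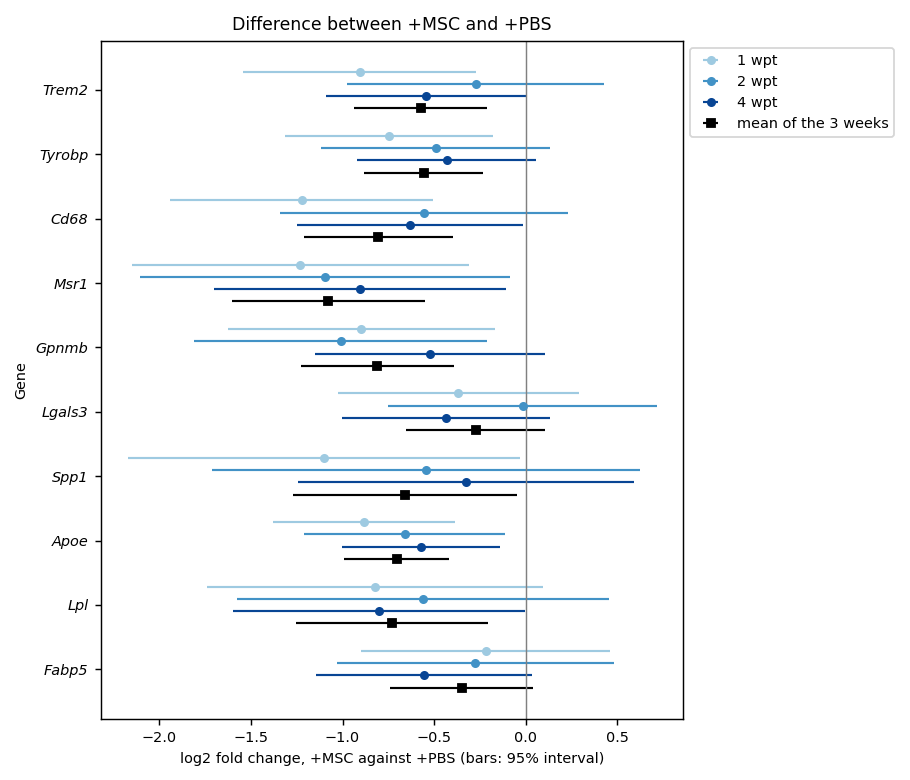
Log2 fold change of +MSC against +PBS for each gene at 1, 2 and 4 wpt (blue circles) and averaged over the 3 weeks (black squares), from edgeR, with bars for the 95% interval. With all libraries every point lies below 0, and the interval of the average excludes 0 for all genes except Lgals3 and Fabp5. Without the libraries labelled replicate 1, which the plot includes, 6 points at 2 wpt, Spp1 at 4 wpt (0.57) and the average of Lgals3 (0.051) lay above 0. At 2 wpt that fit keeps only replicate 2 of +PBS. Fabp5 at 1 wpt lay above 0 without +PBS-1w replicate 3 (0.24).

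Part of the spread within groups was common to the genes. Replicate 2 was the lowest library of its group for 10 of 10 genes in +PBS-1w and in +PBS-2w and for 8 in +PBS-4w, and +MSC-2w replicate 1 was the lowest for 10 of 10. This +MSC-2w library also had the lowest summed level of 10 general myeloid markers (1300 CPM, beside 2071 and 2113 CPM in the rest of its group) and the highest of 5 neuron markers (3845 CPM, beside 2369 and 2484 CPM). In +PBS-2w, replicate 2 had 1719 CPM of myeloid markers beside 2543 CPM in replicate 1. Other low libraries differed. In +PBS-1w, replicate 2 had 2633 CPM of myeloid markers, between replicate 1 (3256 CPM) and replicate 3 (2359 CPM). In +PBS-4w, replicate 2 had the lowest level of its group for both myeloid (1470 CPM) and neuron markers (696 CPM). Over the 22 injured libraries, the 45 pairs of genes had Pearson correlations of log2 CPM between 0.58 and 0.936 (median 0.773). With group means taken off they lay between 0.177 and 0.93 (median 0.637). The points share libraries and their cell makeup. Cd68 followed the mean of the other 9 most closely (r = 0.959) and Lgals3 least (r = 0.78). The closest pair was Trem2 and Cd68 (0.936), and the farthest was Spp1 and Lgals3 (0.58).

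The genes outside the 10 whose log2 CPM followed their mean most closely over the 22 injured libraries were Arl11 (r = 0.967), Slc15a3 (0.961), Cd63 and Ctsb (both 0.96), Dpp7 (0.959), Gpx1 (0.958), Gngt2 (0.955), and Ctsa, Ctsd and Cyba (all 0.954). Ctsb and Ctsd encode the lysosomal cathepsins B and D, Ctsa cathepsin A, Cd63 a tetraspanin of lysosomes, and Cyba a subunit of the phagocyte NADPH oxidase. With group means taken off, these correlations were between 0.856 (Gngt2) and 0.913 (Gpx1 and Ctsd).

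Markers of other cells moved with the same contrasts, and their part in the results was not tested. The 10 general myeloid markers, among them Cd53 (4.17 ± 0.23) and Cyba (4.44 ± 0.25), were all called higher in sub-SCI than in Intact (edgeR adjusted p = 9.29e-12 and 1.5e-11). Their summed level was 278 to 442 CPM in Intact, 2728 to 3112 CPM in sub-SCI, 1470 to 3256 CPM in the +PBS groups and 1300 to 2113 CPM in the +MSC groups. In +MSC against +PBS over the 3 weeks, all 10 had negative values (median -0.38) and 5 had an adjusted p under 0.05. The 5 neuron markers were all called lower in sub-SCI than in Intact and all had an adjusted p under 0.05 in the other direction in +MSC against +PBS, with Rbfox3 at 1.28 ± 0.22 (edgeR adjusted p = 0.000782). Their summed level was 4370 to 5428 CPM in Intact, 138 to 829 CPM in sub-SCI, 446 to 2575 CPM in the +PBS groups and 1542 to 3845 CPM in the +MSC groups. The 5 fibroblast markers all had an adjusted p under 0.05 and lower levels in +MSC (median -1.26), and their summed level was 1007 to 7534 CPM in the +PBS groups and 330 to 2569 CPM in the +MSC groups. In the same contrast 1 of 5 astrocyte markers (Slc1a2, 0.76) had an adjusted p under 0.05, and none of 5 oligodendrocyte, 5 Schwann cell or 4 neutrophil markers had one by edgeR. None of these markers was at 0 throughout a group.

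To describe the genes beside the myeloid signal as a whole, each gene's log2 CPM was set against the mean log2 CPM of the 10 general myeloid markers in the same library. That mean rose by 3.49 from Intact to sub-SCI. Gpnmb rose by 4.45 more than it, Cd68 by 3.96, Msr1 by 2.50, Lgals3 by 1.82, Trem2 by 1.21, Tyrobp by 0.98 and Spp1 by 0.59. The others were negative, with -0.18 for Apoe, -0.89 for Fabp5 and -1.13 for Lpl. The genes thus spread over more than 5 log2 units, from the lysosomal glycoproteins at the top to the lipid enzyme at the bottom. In +MSC against +PBS, averaged over the weeks, the myeloid mean differed by -0.36, and the difference beyond it was -0.77 for Msr1, -0.44 for Cd68, -0.39 for Gpnmb, -0.31 for Apoe, -0.30 for Lpl, -0.20 for Trem2, -0.17 for Spp1 and -0.14 for Tyrobp, with 0.09 for Lgals3 and 0.10 for Fabp5. These differences carry no test.

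**Figure D4:**
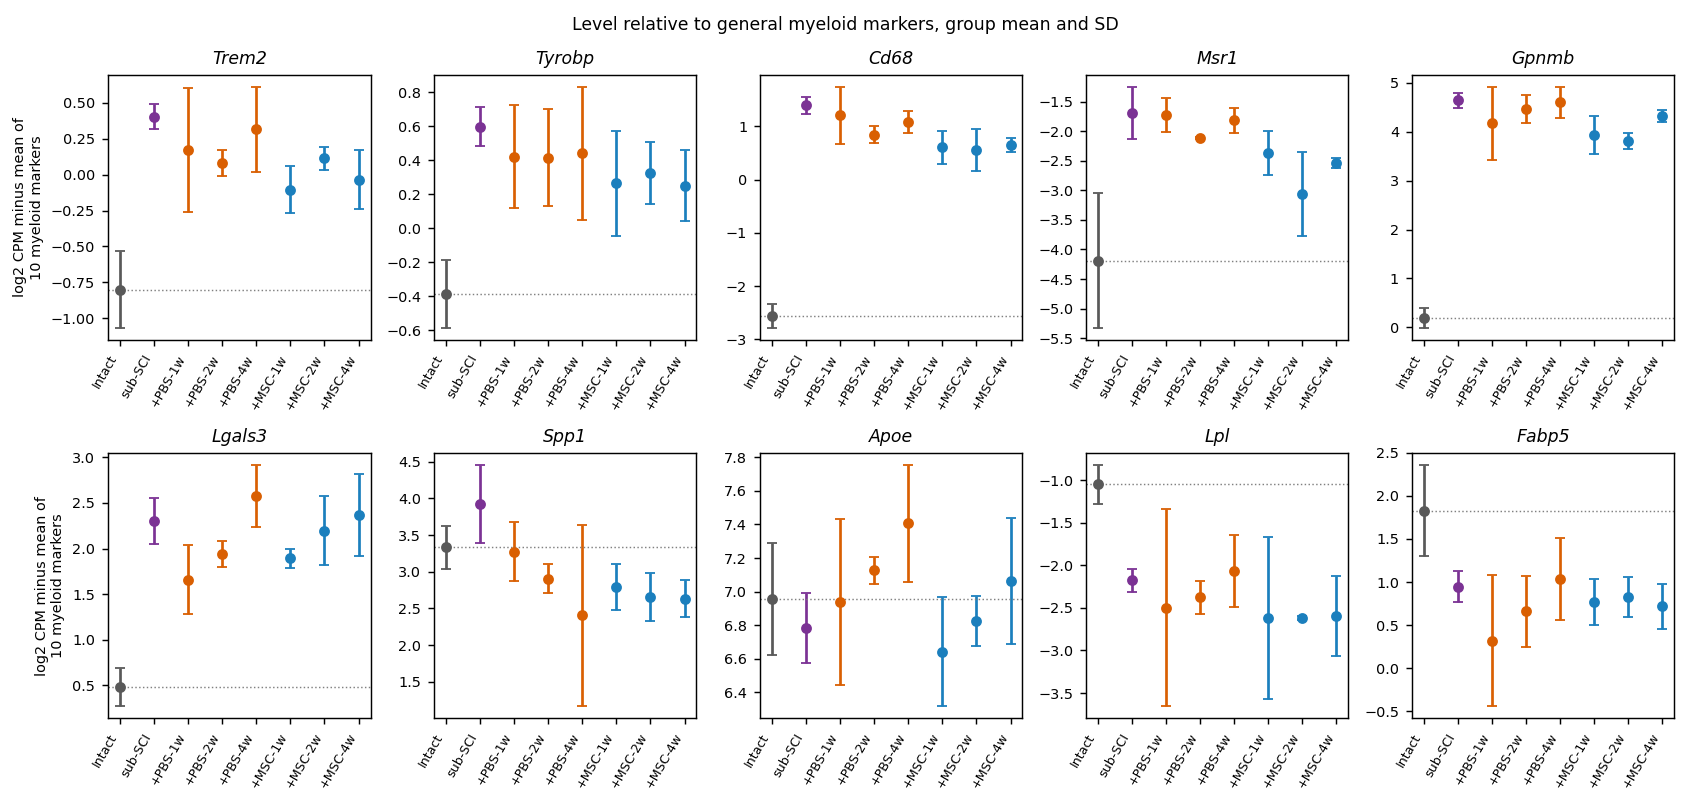
Log2 CPM of each gene minus the mean log2 CPM of 10 general myeloid markers in the same library, by group, with the mean and SD over libraries and a dotted line at the Intact mean. Gpnmb, Cd68 and Lgals3 stand well above the dotted line in every injured group, while Lpl and Fabp5 stand below it.

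The genes around these 10 were read from lists of their pathways. Of 9 genes of TREM2 and TYROBP signalling, 8 were called higher in sub-SCI than in Intact (median 2.95), with Vav1, a guanine nucleotide exchange factor, at 3.65 ± 0.23 (edgeR adjusted p = 6.35e-11) and Blnk, an adaptor protein, at 2.95 ± 0.20 (edgeR adjusted p = 1.39e-10). In +MSC against +PBS over the 3 weeks, none of the 9 was called by edgeR and 3 had an adjusted p under 0.05, all lower. Of 16 other genes of damage-associated microglia, 12 were called higher in sub-SCI (median 3.29), with the lowest adjusted p for the cathepsin gene Ctsl (3.33 ± 0.14, edgeR adjusted p = 3.97e-13). In +MSC, 1 of the 16 was called lower, the chemokine Ccl6 (-1.01 ± 0.23, edgeR adjusted p = 0.0046), and 7 had an adjusted p under 0.05.

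Of 11 other phagocytic and scavenger receptors tested, 9 were called higher in sub-SCI, with the lowest adjusted p for the Fc receptor gene Fcgr1a (3.60 ± 0.27, edgeR adjusted p = 5.6e-10) and Olr1 (3.18 ± 0.28, edgeR adjusted p = 5.89e-09). In +MSC over the 3 weeks, where 0.956% of all genes were called lower, 3 of the 11 were. These were Stab1 (-1.09 ± 0.23, edgeR adjusted p = 0.0025), the mannose receptor Mrc1 (-1.18 ± 0.25, edgeR adjusted p = 0.00254) and Colec12 (-1.36 ± 0.31, edgeR adjusted p = 0.00498), which are, like Msr1, endocytic receptors. Stab1 and Colec12 are also expressed by endothelial cells, and which cells their transcripts came from here was not tested. Of 3 endothelial markers tested, only Cdh5 was called lower (-1.26 ± 0.27, edgeR adjusted p = 0.00327). Of the 3, 2 had a negative and 1 a positive value, with a median of -0.19.

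Of 13 genes of lipid loading and efflux, 10 were called higher and 1 lower in sub-SCI (median 2.74), with the lipid droplet protein Plin2 at 3.22 ± 0.19 (edgeR adjusted p = 2.94e-11) and the lysosomal cholesterol transporter Npc2 at 2.74 ± 0.20 (edgeR adjusted p = 4.61e-10). In +MSC, the apolipoprotein gene Apoc1 was called lower (-1.16 ± 0.26, edgeR adjusted p = 0.00386), and at an adjusted p under 0.05 there were 6 genes lower and 1 higher. Of 7 receptors of osteopontin, 3 were called higher in sub-SCI, with Cd44 at 2.42 ± 0.19 (edgeR adjusted p = 1.23e-09) and Itgb1 at 1.603 ± 0.15 (edgeR adjusted p = 7.79e-09). Of 3 regulators of lipoprotein lipase tested, Angptl4, a secreted inhibitor of the enzyme, was called higher in sub-SCI (2.92 ± 0.23, edgeR adjusted p = 1.33e-09) and had an adjusted p under 0.05 and a negative value in +MSC (-0.76, edgeR adjusted p = 0.00113).

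The 8 homeostatic microglia genes differed from the 10 in scale: 5 were called higher in sub-SCI, with a median log2 fold change of 1.09. In +MSC their median over the 3 weeks was -0.02, with 3 positive and 5 negative values. Only 1 was called lower, Olfml3 (-1.16 ± 0.27, edgeR adjusted p = 0.00542), and no other had an adjusted p under 0.05 by edgeR. Whether the Olfml3 transcripts came from microglia was not tested. Of 8 listed markers of blood-derived monocytes and macrophages, 6 were in the count table, without Ccr2 and Plac8. Of these 6, 5 were called higher in sub-SCI (median 2.99) and 1, Mrc1, was called lower in +MSC (median -0.49). Whether the 6 came from blood-derived or from resident cells was not tested. The 5 dividing cell markers were all called higher in sub-SCI and all called lower in +PBS-4w than in sub-SCI (median -2.91), where the median of the 10 phagocyte genes was -0.85.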

How the data were processed

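The authors trimmed reads with Trim Galore 0.5.0, discarded reads with a human match (HISAT2 2.1.0, GRCh38), mapped the remaining ones to Rnor6 of the rat, and counted proper pairs (SAMtools 1.9) per gene with featureCounts 1.6.4. Rat reads that also map to human can be lost in that step. The deposited values are raw counts per gene, with no normalization by the authors. The strand setting and annotation release are not given in the sources used here, so overlapping genes are uncertain. The study's methods give 2 repeats for +MSC-2w where the labels give 3, and the labels were followed.

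The main tests were made by edgeR 4.0.16 under R 4.3.3 (filterByExpr, TMM, glmQLFit and glmQLFTest, 1 model of 8 groups), with limma 3.58.1 and DESeq2 1.42.0 for alternatives. The p-values were adjusted over all 17990 genes by Benjamini-Hochberg. Correlations and myeloid comparisons used log2 CPM with a prior count of 2. The tests were first tried on simulated data. Intervals are at 95%. Same-numbered libraries were not taken as pairs: every pair correlated above 0.1 in 1 of 14 comparisons. The 10 genes, the lists and the genes named from them (the 2 with the lowest adjusted p in sub-SCI against Intact, and those called between +MSC and +PBS, with some others named after their values were seen) were chosen with earlier results of these data known. Alternatives were other tools, size factors, filters, thresholds, a replicate block, a term for replicate 1, the libraries other than replicate 1, and each library left out. They were taken for the 10 genes and not for the lists. The count at an adjusted p under 0.05 under each alternative was added after seeing the data. Shares of all genes were taken for the main edgeR fit only, so counts from other fits have none beside them. The values of 1 listed gene are not reported here.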

Additional observations from a re-analysis of the deposited data

Results flagged for a closer look

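Of 30 groups of 4 libraries tested by Dixon's criterion (which chance passes in about 1 of 20 groups), 2 held a library far from the rest. Apoe in Intact replicate 3 was at 2433 CPM, below the nearest at 2751 CPM and the highest at 2805 CPM (gap over range 0.855). Spp1 in +MSC-4w replicate 1 was at 448.3 CPM, with the other libraries between 863 and 903 CPM (0.912). That library was also the lowest of its group for 7 of the 10 genes.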

How the results depend on the processing

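The rise with injury kept its calls in nearly every fit. With single libraries left out, the number of the 10 genes called higher than Intact was 10 in each of 26 fits in sub-SCI, +PBS-1w and +PBS-4w, 7 to 10 in +PBS-2w, 9 to 10 in +MSC-1w and 8 to 9 in +MSC-2w and +MSC-4w. The log2 fold changes in sub-SCI kept direction and significance in 349 of 349 values.

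In +MSC-1w against +PBS-1w, DESeq2 on the 2 groups called 3 genes, and at an adjusted p under 0.05 it gave 6, DESeq2 on all libraries 2, and leave-one-out fits 0 to 1. At 4 wpt, DESeq2 on the 2 groups and the libraries other than replicate 1 each gave 1 at that threshold. Over the 3 weeks, the count called was 0 with at least 10 counts in every library, 0 in the libraries other than replicate 1, 7 at an adjusted p under 0.05 and 0 to 1 in leave-one-out fits, and the count at an adjusted p under 0.05 was 2 in the libraries other than replicate 1 and 2 to 8 in leave-one-out fits. In +PBS-2w against sub-SCI, DESeq2 on the 2 groups and the libraries other than replicate 1 each called 2. In +PBS-4w against sub-SCI, DESeq2 on all libraries called 2, edgeR on the 2 groups 0, an adjusted p under 0.05 gave 4, the libraries other than replicate 1 gave 5, and leave-one-out fits gave 0 to 2. In +MSC-4w against sub-SCI, leave-one-out fits called 5 to 9.

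A replicate block, which pairs libraries by number alone, called 2 in +PBS-4w against sub-SCI and 1 over the 3 weeks, and moved no other count by over 1.5 times. Same-numbered libraries correlated between -0.164 and 0.411, and 25 of 42 pairs correlated best with their own number. In +PBS-1w against sub-SCI, where every pair was above 0.1 (0.191 to 0.411), the block changed no count (0).

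Log2 fold changes of +MSC against +PBS turned positive in the libraries other than replicate 1 at 2 wpt for Trem2 (0.19), Tyrobp (0.21), Spp1 (0.26), Lgals3 (0.74), Cd68 (0.23) and Fabp5 (0.51), at 4 wpt for Spp1 (0.57) and over the 3 weeks for Lgals3 (0.051). With single libraries left out they lay between -0.49 and 0.24 for Fabp5 at 1 wpt (positive without +PBS-1w replicate 3), between -0.91 and 0.11 for Tyrobp, -0.37 and 0.46 for Lgals3 and -0.75 and 0.45 for Fabp5 at 2 wpt (positive without +PBS-2w replicate 1, and for Lgals3 also without +MSC-2w replicate 1, 0.30), and between -0.62 and 0.35 for Spp1 at 4 wpt (positive without +PBS-4w replicate 1). None of the positive values had an adjusted p under 0.05 by edgeR, and the cause was not tested. The group of 2 libraries, +PBS-2w, limits each result at 2 wpt, and without replicate 1 it keeps only replicate 2. The Intact counts of Msr1 limit the size of its rise.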
